A study of Mus musculus with 9 samples.

Results

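The genes described here are 10 integrin chains of leukocytes and megakaryocytes, Itgam, Itgax, Itgal, Itgb2, Itga2b, Itga4, Itgb1, Itgb3, Itgb7 and Itgae. They were taken by name from the deposited gene tables, which held 55274 gene identifiers, and each name matched 1 identifier. The tables came from 9 RNA-seq libraries of mouse bone marrow cells, 3 with NRASG12D alone, 3 with NUP98-NSD1 alone and 3 with both, the NUP98-NSD1+NRASG12D group. NRASG12D is a mutant RAS GTPase that stays switched on, and NUP98-NSD1 is a leukaemia fusion of a nucleoporin with a histone methyltransferase. All cells shared their source, bone marrow of female C57BL/6J mice of 6 to 8 weeks that had received 5-fluorouracil at 150 mg/kg and were harvested 4 days later. Before transduction they also shared a stimulation of 48 h with human interleukin-6 at 10 ng/mL, murine interleukin-3 at 6 ng/mL and murine stem cell factor at 20 ng/mL. NRASG12D was carried by a retroviral MSCV-IRES-BFP vector, NUP98-NSD1 by an MSCV-IRES-GFP vector and the third group by both. After transduction, cells were sorted for these fluorochromes and not for a lineage marker, and were expanded in culture before RNA was isolated. No group without an oncogene was analysed here. The study describes cultured NRASG12D cells as mostly mast cells, so a comparison with them is also a comparison of cell types. The labels do not say whether the 3 libraries of a group came from separate cultures, so p-values measure the spread between these libraries.

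An integrin is a pair of an alpha and a beta chain that spans the cell membrane and binds matrix, plasma proteins or other cells. The beta 2 chain (CD18, Itgb2) pairs with the alpha chains L (LFA-1), M (Mac-1, CD11b) and X (CD11c) in leukocytes, and binds intercellular adhesion molecules, complement fragments and fibrinogen. The beta 7 chain pairs with alpha 4 or alpha E (CD103), and alpha 4 also pairs with beta 1 to form VLA-4, the receptor of VCAM-1 and fibronectin that holds progenitors in the marrow. Alpha IIb (CD41, Itga2b) pairs with beta 3 as the fibrinogen receptor of platelets and is also found on early progenitors and mast cells.

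The alpha chains of the beta 2 family lie on chromosome 7 of GRCm38. Itgal (ENSMUSG00000030830.18) spans chr7:127296260-127335138, Itgam (ENSMUSG00000030786.18) chr7:128062640-128118491 and Itgax (ENSMUSG00000030789.9) chr7:128129547-128150657, all on the plus strand. Itgal ended 727.5 kb before Itgam, with 38 protein-coding genes between them, whereas Itgam ended 11.1 kb before Itgax. The other members are Itgb2 (ENSMUSG00000000290.13, chr10:77530252-77565708, plus), Itga2b (ENSMUSG00000034664.13, chr11:102453297-102470122, minus) and Itgb3 (ENSMUSG00000020689.4, chr11:104608000-104670476, plus). Itgae (ENSMUSG00000005947.11) spans chr11:73090583-73147446 on the plus strand and Itgb7 (ENSMUSG00000001281.10) chr15:102215995-102231944 on the minus strand. Itga4 (ENSMUSG00000027009.18) spans chr2:79255426-79333123 and Itgb1 (ENSMUSG00000025809.15) chr8:128685654-128733200, both on the plus strand. Values are of whole genes, all exons together.

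RefSeq upstream sequences were matched for 6 of the 10 genes, Itga4, Itgam, Itgax, Itgb1, Itga2b and Itgb7. Those of Itgam, Itga2b and Itgb7 are shown because Itgam rose most and Itga2b and Itgb7 fell in NUP98-NSD1+NRASG12D cells. They are the 250 bases before the RefSeq start of the gene on GRCm38.p6, written 5′ to 3′ on the gene's own strand, and capitals mark matches to GAGGAA, a core that ETS factors such as PU.1 bind, or its reverse complement TTCCTC. The Itga2b window precedes the start of the coding transcripts but not the annotated span of the gene, in which 239 of its 250 bases lie, 180 of them in an exon of a noncoding Itga2b transcript. Of the Itgb7 window, the last 9 bases lie in an exon of the gene, and the Itgam window lies outside its gene.
Itgam, chr7:128062390-128062639, plus: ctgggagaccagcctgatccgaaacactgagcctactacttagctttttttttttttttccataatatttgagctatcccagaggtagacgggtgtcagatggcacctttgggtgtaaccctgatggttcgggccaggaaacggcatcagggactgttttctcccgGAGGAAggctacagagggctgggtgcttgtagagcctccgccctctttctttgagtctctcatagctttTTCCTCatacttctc
Itga2b, chr11:102469884-102470133, minus: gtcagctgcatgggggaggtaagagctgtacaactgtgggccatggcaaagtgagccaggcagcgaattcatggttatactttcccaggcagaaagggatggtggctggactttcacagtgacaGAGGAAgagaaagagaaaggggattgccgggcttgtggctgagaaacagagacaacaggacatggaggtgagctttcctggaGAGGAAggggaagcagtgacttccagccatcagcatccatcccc
Itgb7, chr15:102231936-102232185, minus: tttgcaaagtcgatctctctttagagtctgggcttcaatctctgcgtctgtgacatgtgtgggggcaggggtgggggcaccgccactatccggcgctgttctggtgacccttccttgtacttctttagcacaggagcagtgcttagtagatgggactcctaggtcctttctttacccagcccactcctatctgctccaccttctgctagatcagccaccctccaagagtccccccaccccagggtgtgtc
GAGGAA was searched on both strands and was present in 23.1% of 27025 promoters of this length. Itgam held it 84 and 15 bases before the start, Itga2b 126 and 44 bases before, Itgb1 9 bases before, and the Itgb7 window held none. AGATAA, a core bound by factors of the GATA family, was in 10.3% of promoters and among these 6 in Itgax, at 217 bases. TGTGGT, a RUNX core, was in 14.2% of promoters and in Itga4, at 60 bases. TTGCNNAA, a C/EBP core, was in 9.55% of promoters and in none of the 6. These matches describe letters, not bound sites, and a single window cannot speak for an enhancer.

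All 10 genes passed the filter of at least 1 FPKM (mapped fragments relative to transcript length and library size) in at least 3 of the 9 libraries. Itgam and Itgax passed it only through the groups with NUP98-NSD1, and Itgae only through the other pair of groups, NRASG12D and NUP98-NSD1. The order of the chains differed between the groups. In NRASG12D cells Itga2b led, with Itgb7 next and Itgb1 after it, and none of these neighbours overlapped. From Itgae through Itgb2, Itgb3 and Itgal to Itga4, neighbours in the order overlapped, and Itgax and Itgam were lowest and overlapped each other. In NUP98-NSD1 cells Itga2b and Itgb7 still led and overlapped each other, and Itgb2 had moved up beside Itgb1. In NUP98-NSD1+NRASG12D cells Itgb2 and Itgam led, but every neighbour from Itgb2 down to Itgal overlapped. By its mean Itgae was lowest there and highest among the 7 lower chains in NRASG12D cells, but it overlapped its neighbour in both orders, Itgax in the first and Itgb2 in the second.

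**Figure D1:**
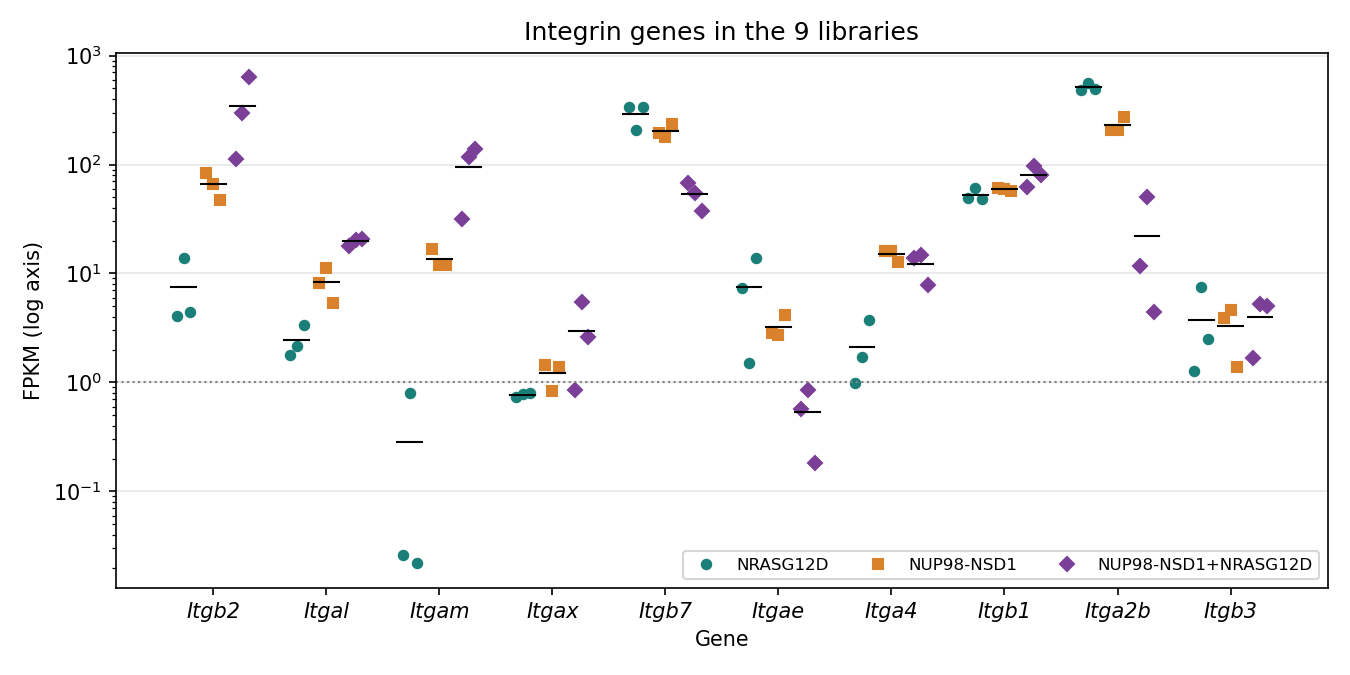
FPKM of the 10 integrin genes (log axis) in each library, with points shifted by replicate within a group, black bars for the group mean of 3 libraries and a dotted line at 1 FPKM. Itgb2, Itgal and Itgam were lowest in NRASG12D and highest in NUP98-NSD1+NRASG12D cells, while Itgb7, Itgae and Itga2b had their highest mean in NRASG12D cells.

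Itgam encodes the alpha chain of Mac-1, the CD11b surface marker of neutrophils, monocytes and macrophages. Its level was 0.0263, 0.796 and 0.0219 FPKM in replicates 1, 2 and 3 of NRASG12D cells, 16.8, 12.0 and 12.1 in NUP98-NSD1 cells, and 31.6, 117 and 138 in NUP98-NSD1+NRASG12D cells. No group overlapped another, and 2 of the NRASG12D libraries were close to the level that 3 fragments give for this gene, 0.0179 to 0.0281 FPKM. Against NRASG12D cells, and on the log2(FPKM + 1) scale used for all changes here, Itgam rose by 3.55 (standard error 0.25, adjusted p = 0.000207) with NUP98-NSD1 alone and by 6.04 (standard error 0.56, adjusted p = 0.000368) with both. With a pseudocount of 0.1 in place of 1 these became 5.82 and 8.38, since the value rests on the pseudocount where a group is near its floor. Between the groups with NUP98-NSD1 it rose by 2.49 (standard error 0.53, adjusted p = 0.0363). This last call was lost when any of 5 libraries was left out, with an adjusted p of 0.0848, 0.121 and 0.133 without NUP98-NSD1 replicates 1, 2 and 3, and of 0.0858 and 0.103 without NUP98-NSD1+NRASG12D replicates 2 and 3. The log2 fold change stayed between 2.10 and 3.15 in these fits. Median-ratio scaling and a fit without the filter on low values lost the call as well.

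The exons of Itgam overlap those of Gm49368, a protein-coding gene on the same strand, over 68.7% of their bases, and 66.3% of the 50-base stretches of Itgam transcripts also occur there. Fragments could therefore have been divided between them. Gm49368 was much lower, at up to 0.0309 FPKM in NRASG12D cells, 0.297 to 0.540 in NUP98-NSD1 cells and 0.801 to 4.19 in NUP98-NSD1+NRASG12D cells. With both genes summed, an alternative chosen after seeing the data, the log2 fold changes of Itgam were 3.57, 6.06 and 2.49 in the 3 comparisons.

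Itgb2 encodes the beta chain of Mac-1, LFA-1 and CD11c/CD18. NRASG12D libraries had 4.05, 13.9 and 4.41 FPKM, NUP98-NSD1 libraries 84.1, 66.5 and 47.7, and NUP98-NSD1+NRASG12D libraries 113, 299 and 631. The groups did not overlap, and the spread was widest with both oncogenes, where the highest library was 5.60 times the lowest. Relative to NRASG12D cells, Itgb2 rose by 3.14 on the log2 scale (standard error 0.42, adjusted p = 0.00177) with NUP98-NSD1 alone and by 5.23 (standard error 0.67, adjusted p = 0.00138) with both. The difference of NUP98-NSD1+NRASG12D from NUP98-NSD1 cells, 2.09 (95% confidence interval 0.69 to 3.49), missed the threshold with an adjusted p of 0.0764. Without NUP98-NSD1+NRASG12D replicate 1, the lowest of its group, it was 2.74 with an adjusted p of 0.0129. It also passed with all 9 libraries in a single fit (adjusted p = 0.0483) and with array weights (adjusted p = 0.00523).

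Itgal encodes the alpha chain of LFA-1, the receptor of intercellular adhesion molecules on most leukocytes. It had 1.80, 2.17 and 3.38 FPKM in NRASG12D, 8.16, 11.3 and 5.39 in NUP98-NSD1, and 17.9, 20.5 and 20.9 in NUP98-NSD1+NRASG12D cells. The groups were separate, and the last of them varied least, by 1.16 times from lowest to highest. The rise against NRASG12D cells was 1.40 (standard error 0.27, adjusted p = 0.00542) with NUP98-NSD1 and 2.61 (standard error 0.21, adjusted p = 0.000219) with both. Between the groups with NUP98-NSD1 it was 1.21 (standard error 0.25, adjusted p = 0.0337). The last call was lost without NUP98-NSD1 replicate 1 or 3 (adjusted p = 0.101 and 0.0950) and without NUP98-NSD1+NRASG12D replicate 2 or 3 (adjusted p = 0.0734 and 0.102), while the log2 fold change ran from 0.97 to 1.44.

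Itgax encodes CD11c, which dendritic cells and some macrophages carry. Its values were 0.738, 0.776 and 0.794 FPKM in NRASG12D cells, 1.46, 0.826 and 1.39 in NUP98-NSD1 cells, and 0.848, 5.49 and 2.61 in NUP98-NSD1+NRASG12D cells. The groups with NUP98-NSD1 overlapped each other, and both lay above NRASG12D cells by a narrow margin. No comparison passed the threshold. The log2 fold changes were 0.32 (95% confidence interval -0.04 to 0.68, adjusted p = 0.120), 0.99 (-0.01 to 1.99, adjusted p = 0.104) and 0.67 (-0.36 to 1.70, adjusted p = 0.426), in the order NUP98-NSD1 against NRASG12D, NUP98-NSD1+NRASG12D against NRASG12D and NUP98-NSD1+NRASG12D against NUP98-NSD1. Without NUP98-NSD1 replicate 2 the first was 0.46 (adjusted p = 0.0485), without NUP98-NSD1+NRASG12D replicate 1 the second was 1.45 (adjusted p = 0.0102), and quantile normalization turned the first to -0.19. Itgax shares 8.02% of its 50-base stretches with Itgad, a further partner of beta 2 that begins 3.72 kb downstream. Itgad was at 0.00537 to 0.83 FPKM in the 9 libraries, so it added little to the partners of Itgb2.

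Itgb7 was the beta chain with the highest level in the NRASG12D and NUP98-NSD1 groups. It had 335, 209 and 337 FPKM in NRASG12D, 193, 180.4 and 236 in NUP98-NSD1, and 68.2, 54.5 and 37.2 in NUP98-NSD1+NRASG12D cells. The last group lay below both others, and the first pair of groups overlapped through NRASG12D replicate 2. In this last group Itgb7 fell by 2.45 on the log2 scale (standard error 0.29, adjusted p = 0.000932) relative to NRASG12D cells and by 1.94 (standard error 0.25, adjusted p = 0.00925) relative to NUP98-NSD1 cells. Between NUP98-NSD1 and NRASG12D cells the log2 fold change was -0.51 (95% confidence interval -0.98 to -0.03, adjusted p = 0.0712). It passed the threshold without NRASG12D replicate 2 (-0.73, adjusted p = 0.00977), with quantile normalization (-0.75, adjusted p = 0.0291), with median-ratio scaling (-0.84, adjusted p = 0.0267) and with array weights (-0.61, adjusted p = 0.0168).

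Itgae encodes alpha E, CD103, known from T cells of epithelia, some dendritic cells and mast cells. NRASG12D libraries had 7.37, 1.51 and 13.9 FPKM, NUP98-NSD1 libraries 2.84, 2.71 and 4.17, and NUP98-NSD1+NRASG12D libraries 0.569, 0.849 and 0.182. The lowest group stood apart from both others, and NRASG12D cells spread over a 9.17-fold range that enclosed all 3 NUP98-NSD1 libraries. Itgae fell by 2.17 (standard error 0.61, adjusted p = 0.0296) against NRASG12D and by 1.48 (standard error 0.23, adjusted p = 0.0150) relative to NUP98-NSD1 cells. The first call was lost without NRASG12D replicate 1 or 3 (adjusted p = 0.0913 and 0.0784), without NUP98-NSD1+NRASG12D replicate 1 or 3 (0.0658 and 0.0866), and with array weights (0.0689). The second was lost without NUP98-NSD1 replicate 1, 2 or 3 (adjusted p = 0.05001, 0.0521 and 0.0623) and with all 9 libraries in a single fit (0.102). Both calls were also lost in the fit without the filter on low values, the first with an adjusted p of 0.137. Between NUP98-NSD1 and NRASG12D cells the log2 fold change was -0.70 (adjusted p = 0.348), and without NRASG12D replicate 2 it was -1.41 (adjusted p = 0.0111). Haspin, on the opposite strand within an Itgae intron, shares no exon bases with it. The T cell receptor genes Cd3d, Cd3e and Cd3g had at most 0.297, 0.0354 and 0.155 FPKM in any library, and Xcr1 and Clec9a of dendritic cells at most 0.098 and 0.896. Other dendritic cell markers went another way. H2-Aa, Flt3 and Batf3 rose in NUP98-NSD1 against NRASG12D cells, by 4.66, 1.80 and 1.36 (adjusted p = 0.000286, 0.00203 and 0.00544), and H2-Aa had 27.5 to 42.3 FPKM in NUP98-NSD1 cells. All 3 needed the groups with NUP98-NSD1 to pass the filter, which favours this direction.

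Itga4 encodes the alpha chain shared by VLA-4 and alpha 4 beta 7. It had 0.994, 1.69 and 3.71 FPKM in NRASG12D, 16.2, 15.99 and 12.8 in NUP98-NSD1, and 13.8, 14.8 and 7.77 in NUP98-NSD1+NRASG12D cells. NRASG12D cells were below both others, which overlapped. Itga4 rose by 2.44 (standard error 0.30, adjusted p = 0.00132) with NUP98-NSD1 and by 2.11 (standard error 0.37, adjusted p = 0.00490) with both oncogenes. Between the groups with NUP98-NSD1 the log2 fold change was -0.33 (95% confidence interval -0.93 to 0.28, adjusted p = 0.521). Of the Itga4 exon bases, 8.04% overlap Cerkl on the opposite strand, whose FPKM ran from 0.271 to 3.85. Strand-specific counting is not stated in the sources used here, so fragments of that stretch cannot be told apart.

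Itgb1, the partner of alpha 4 in VLA-4 and of many other alpha chains, stayed between 48.3 and 97.0 FPKM in every library. The values were 48.8, 61.4 and 48.3 FPKM in NRASG12D, 60.4, 60.2 and 57.5 in NUP98-NSD1, and 61.7, 97.0 and 80.2 in NUP98-NSD1+NRASG12D cells. The first pair of groups overlapped, and the third lay above both, by a margin of under 1 FPKM over NRASG12D replicate 2. No comparison passed, with log2 fold changes of 0.17 (95% confidence interval -0.08 to 0.43, adjusted p = 0.214), 0.57 (0.08 to 1.05, adjusted p = 0.0657) and 0.39 (-0.06 to 0.85, adjusted p = 0.269) in the same order as for Itgax. Without NUP98-NSD1+NRASG12D replicate 1 the last 2 were 0.74 (adjusted p = 0.0162) and 0.56 (adjusted p = 0.0375), and without NRASG12D replicate 2 the first was 0.28 (adjusted p = 0.0432). The first turned to -0.14 with quantile normalization and to -0.16 with median-ratio scaling. The second also passed with all 9 libraries in 1 fit (adjusted p = 0.0250) and with array weights (0.0261), and the third with array weights (0.0392).

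Itga2b, the megakaryocyte chain alpha IIb, was the most abundant of the 10 genes in NRASG12D cells. It had 479, 558 and 493 FPKM there, 209, 205 and 276 in NUP98-NSD1 cells, and 11.6, 50.1 and 4.43 in NUP98-NSD1+NRASG12D cells. No groups overlapped, and the lowest group was also the most spread, by 11.3 times. Relative to NRASG12D cells, Itga2b fell by 1.16 (standard error 0.13, adjusted p = 0.00116) with NUP98-NSD1 alone and by 5.07 (standard error 0.73, adjusted p = 0.00211) with both. Between the groups with NUP98-NSD1 it fell by 3.91 (standard error 0.74, adjusted p = 0.0251). This call was lost without NUP98-NSD1 replicate 1, 2 or 3 (adjusted p = 0.0744, 0.0832 and 0.102) and without NUP98-NSD1+NRASG12D replicate 3 (0.0503), with log2 fold changes between -4.79 and -3.17. The fall from NRASG12D to NUP98-NSD1 cells missed the threshold with all 9 libraries in a single fit (adjusted p = 0.199). Gm23563, a small RNA within the Itga2b span, shares no exon bases with it.

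Itgb3, the partner of alpha IIb and of alpha V, did not follow Itga2b. NRASG12D libraries had 1.26, 7.53 and 2.48 FPKM, NUP98-NSD1 libraries 3.93, 4.61 and 1.37, and NUP98-NSD1+NRASG12D libraries 1.67, 5.20 and 4.99. All 3 groups overlapped. The log2 fold changes were -0.01 (95% confidence interval -1.24 to 1.22, adjusted p = 0.987), 0.19 (-1.10 to 1.47, adjusted p = 0.803) and 0.20 (-0.86 to 1.26, adjusted p = 0.867), and both intervals against NRASG12D cells reached past a 2-fold change in either direction. The sign turned when single libraries were left out. Per length, the FPKM of Itga2b was 74.0 to 379 times that of Itgb3 with NRASG12D alone, 44.5 to 201 times with NUP98-NSD1 alone and 0.888 to 9.63 times with both, and in replicate 3 of the last group it was below Itgb3.

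Of the other genes of the platelet lineage, Gp1ba and Gp5, chains of the von Willebrand factor receptor complex, were high in the same libraries as Itga2b. Gp1ba had 107 to 123 FPKM with NRASG12D alone, 51.1 to 81.5 with NUP98-NSD1 alone and 1.56 to 9.41 with both. Gp6, the collagen receptor, was at most 0.0818 FPKM in any library. Pf4, the platelet chemokine, ran the other way, at 0.187 to 3.96 FPKM in NRASG12D and 62.8 to 1157 in NUP98-NSD1+NRASG12D cells. Over the 10 genes of this marker list, 4 rose and 2 fell in NUP98-NSD1 against NRASG12D cells, 2 rose and 2 fell when NUP98-NSD1+NRASG12D cells were set against NRASG12D cells, 2 fell between the groups with NUP98-NSD1, and 4 did not pass the filter. Of all tested genes, 52.1% (42.2% higher), 38.3% (24.2% higher) and 8.61% (2.3% higher) were called in these comparisons, in the same order. Counts of the other marker lists can be read beside these shares too.

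Most mast cell genes were lowest in NUP98-NSD1+NRASG12D cells, as Itga2b and Itgb7 were, but they did not all move with them. Kit, the stem cell factor receptor, had 982, 1119 and 1049 FPKM in NRASG12D cells, 387, 382 and 561 in NUP98-NSD1 cells, and 36.0, 70.7 and 8.27 in NUP98-NSD1+NRASG12D cells. In the last group Itga2b and Kit had the same order of libraries, replicate 2 highest and replicate 3 lowest, whereas Itgb7 was highest in replicate 1. The summed FPKM of 10 mast cell markers was 35824 to 37856, 28814 to 34869 and 778 to 4665 in the 3 groups. Cpa3, a defining mast cell protease, was listed at 0 in all NRASG12D libraries beside 12564 to 14378 FPKM in NUP98-NSD1 cells, and such a 0 can be a failed estimate. The sum includes Cpa3, so the sums of NRASG12D and NUP98-NSD1 cells cannot be set against each other. Of these 10 markers, 5 fell and 3 rose in NUP98-NSD1 against NRASG12D cells, 8 fell and 2 rose in NUP98-NSD1+NRASG12D against NRASG12D cells, and 8 fell and 0 rose between the groups with NUP98-NSD1. The 3 that rose with NUP98-NSD1 alone, where Itga2b fell, were Cpa3, the protease Mcpt4 (2.68, adjusted p = 0.00216) and Hdc, the enzyme that makes histamine (4.31, adjusted p = 0.00156). The rise of Cpa3, here and in the count with both oncogenes against NRASG12D cells, rests on its listed 0. Hdc was also higher with both oncogenes than with NRASG12D alone (3.21, adjusted p = 0.0408). Its groups overlapped there, at 8.08 to 129 FPKM with both and 1.60 to 8.72 with NRASG12D alone. Relative to Fcer1a, the alpha chain of the IgE receptor, Itga2b was 12.6% to 13.9% with NRASG12D alone, 7.68% to 8.15% with NUP98-NSD1 alone and 11.3% to 28.9% with both. Itgb7 was 4.72% to 9.52%, 6.75% to 7.54% and 21.5% to 169% of Fcer1a. The part of mast cells in the differences of Itga2b, Itgb7 and Itgae was not tested. In such bulk RNA, fewer cells of a type and less RNA per cell cannot be told apart.

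**Figure D2:**
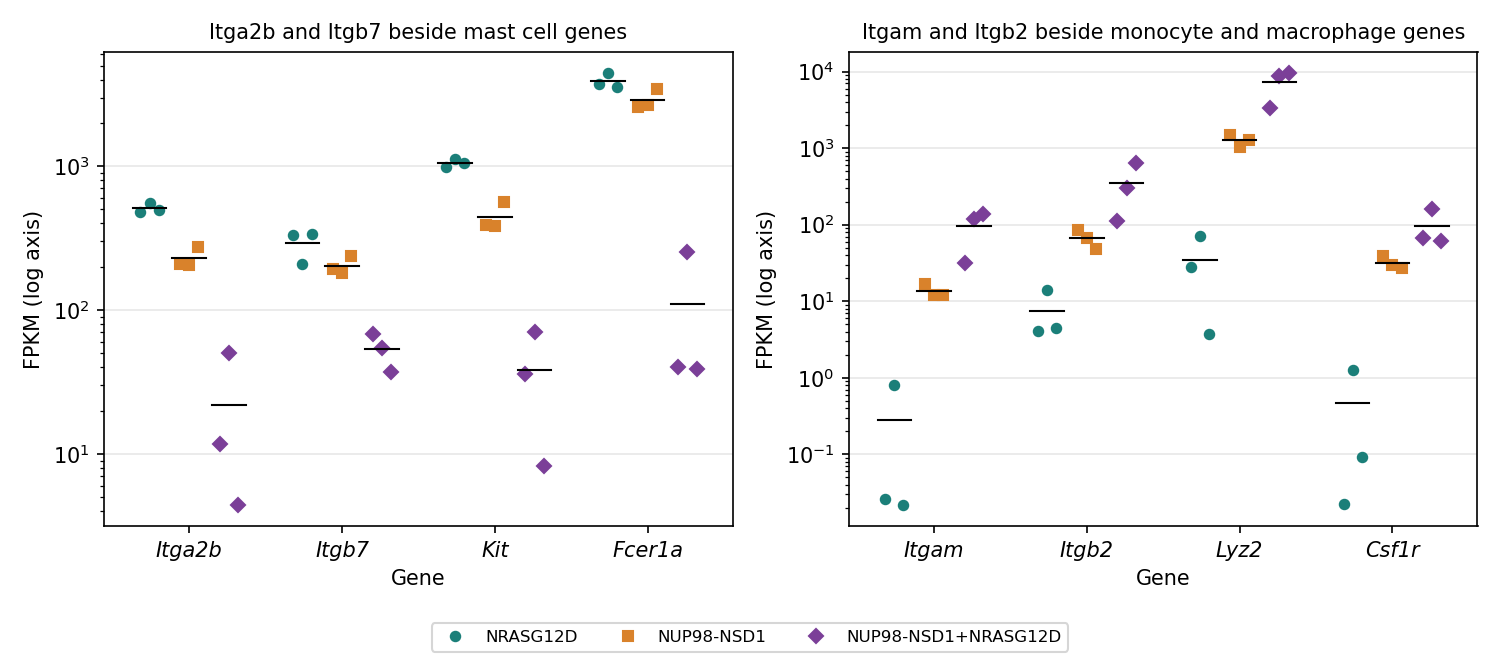
FPKM (log axis) per library of Itga2b and Itgb7 beside the mast cell genes Kit and Fcer1a (left) and of Itgam and Itgb2 beside the monocyte and macrophage genes Lyz2 and Csf1r (right), with black bars for group means of 3 libraries. Genes of the left panel were lowest in NUP98-NSD1+NRASG12D cells, and genes of the right panel lowest in NRASG12D cells.

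Most genes of neutrophils and monocytes were lowest in NRASG12D cells, as Itgam and Itgb2 were. Of 10 neutrophil and promyelocyte markers 9 rose and 0 fell in each comparison with NRASG12D cells, and 3 rose between the groups with NUP98-NSD1. Of 8 monocyte and macrophage markers 7 rose in each comparison with NRASG12D cells, and 2 rose and 1 fell between the groups with NUP98-NSD1. Cx3cr1, a chemokine receptor of monocytes, went the other way and fell by 2.15 (adjusted p = 0.002005) with both oncogenes relative to NRASG12D alone and by 1.65 (adjusted p = 0.0136) relative to NUP98-NSD1 alone. Mpo, the granule enzyme myeloperoxidase, had a log2 fold change of -0.49 (adjusted p = 0.896) between the groups with NUP98-NSD1. Lyz2, which encodes lysozyme, had 27.9, 71.9 and 3.68 FPKM in NRASG12D, 1472, 1042 and 1292 in NUP98-NSD1, and 3370.1, 8813 and 9554 in NUP98-NSD1+NRASG12D cells. In the last group Lyz2, Itgam and Itgb2 were all lowest in replicate 1 and highest in replicate 3. The summed monocyte and macrophage markers had this order too, but the summed neutrophil and promyelocyte markers were lowest in replicate 2 there. NRASG12D replicate 2, the highest of its group for Itgam and Itgb2, was also the highest for Lyz2, Csf1r (1.28 FPKM), Mpo (3.53 FPKM) and S100a8 (3.29 FPKM). The 10 neutrophil and promyelocyte markers summed to 29.7 to 36.9, 1727 to 6125 and 8874 to 19506 FPKM in the 3 groups, and the 8 monocyte and macrophage markers to 68.8 to 142, 1297 to 1809 and 3843 to 10552. Of the 8 dendritic cell markers, 5 did not pass the filter. The 3 that passed, H2-Aa, Flt3 and Batf3, all rose in NUP98-NSD1 against NRASG12D cells. Flt3 and Batf3 had at most 0.0213 and 0.0844 FPKM in NRASG12D cells, and H2-Aa had a median of 0.106 there. They needed the groups with NUP98-NSD1 to pass the filter, so that all of them rose says little. With both oncogenes 2 rose and 0 fell against NRASG12D cells, and 0 were called between the groups with NUP98-NSD1. The 8 summed to 0.173 to 1.88, 31.6 to 45.6 and 4.16 to 50.0 FPKM in the 3 groups. The 7 T cell markers summed to 9.51 to 486 FPKM, of which Lat, a signalling adaptor also used by mast cells, made up nearly all in NRASG12D cells. The 4 basophil markers summed to 409 to 449.6, 861 to 1605 and 29.2 to 488 FPKM. The part of these cell types in the rise of Itgam, Itgb2 and Itgal was not tested.

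The members' calls can be read against those of all genes. In NUP98-NSD1 against NRASG12D cells 5 of the 10 passed the adjusted p of 0.05, 4 higher and 1 lower, where 52.1% of all 13493 tested genes passed, 42.2% higher and 9.98% lower. The members' share was thus close to the background. In NUP98-NSD1+NRASG12D against NRASG12D cells 7 of 10 passed, 4 higher and 3 lower, beside 38.3% of all genes, 24.2% higher and 14.1% lower. In NUP98-NSD1+NRASG12D against NUP98-NSD1 cells 5 of 10 passed, 2 higher and 3 lower, beside 8.61% of all genes, 2.3% higher and 6.31% lower. In the same order the groups did not overlap for 6, 9 and 7 members, beside 64.2%, 58.6% and 31.4% of all genes. The median log2 fold change was 0.25, 0.78 and 0.30 over the members and 0.27, 0.23 and -0.06 over all tested genes. After median-ratio scaling the latter were -0.01, 0.03 and 0.03, so a change near 0.27 or 0.23 against NRASG12D cells is no larger than the shift of the whole table. The comparisons share libraries, so they are not independent.

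The number of members called in NUP98-NSD1+NRASG12D against NUP98-NSD1 cells depended on single libraries. It was 1 without NUP98-NSD1 replicate 1 or 3, where 3.09% and 2.1% of all tested genes passed, and 2 without NUP98-NSD1 replicate 2 or NUP98-NSD1+NRASG12D replicate 3, where 2.24% and 3.66% passed. It was 3 without NUP98-NSD1+NRASG12D replicate 2 and 7 without NUP98-NSD1+NRASG12D replicate 1, beside 7.99% and 18.6% of all genes, so the count moved with that of the whole table. Itgb7 was called in each of these 6 fits. In NUP98-NSD1 against NRASG12D cells 8 members were called without NRASG12D replicate 2, with Itgb7, Itgae and Itgb1 in addition, beside 44.4% of all genes. Between NUP98-NSD1+NRASG12D and NRASG12D cells the 6 fits called 6 to 8 members, beside 21.8% to 46.9% of all genes, and Itgam, Itgb2, Itgal, Itga4, Itga2b and Itgb7 passed in all of them.

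**Figure D3:**
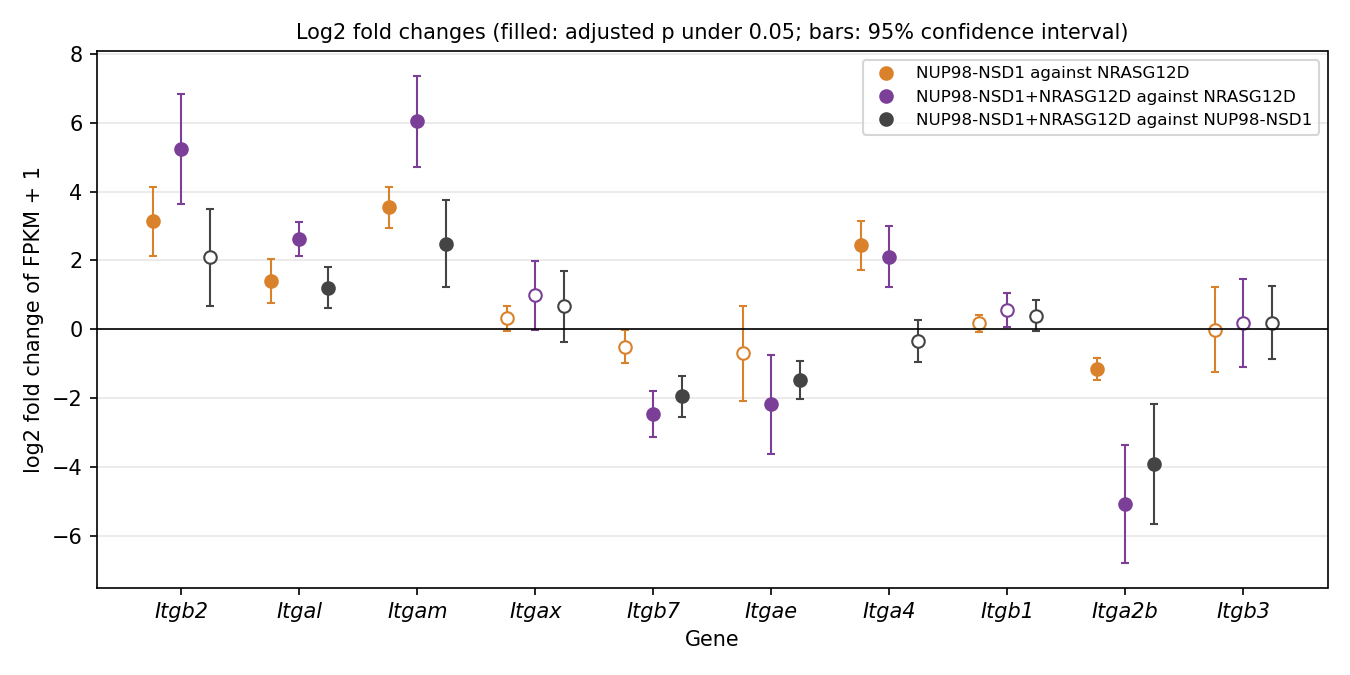
Log2 fold change of FPKM + 1 for the 10 integrin genes in the 3 comparisons, with bars for the 95% confidence interval and filled circles where the adjusted p was under 0.05. Itgb2, Itgal, Itgam and Itga4 were higher and Itgb7, Itgae and Itga2b lower in NUP98-NSD1+NRASG12D than in NRASG12D cells.

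The make-up of the integrin RNA was compared within each library, which removes any scaling between libraries. Of the summed FPKM of the 4 beta chains, Itgb7 held 86.1%, 71.6% and 85.9% in NRASG12D, 56.5%, 57.9% and 68.9% in NUP98-NSD1, and 27.9%, 12.0% and 4.93% in NUP98-NSD1+NRASG12D cells. Itgb2 held 1.04%, 4.76% and 1.12%, then 24.6%, 21.3% and 13.9%, then 46.1%, 65.6% and 83.8%. The shares of both chains were separate in every pair of groups, and the exact permutation test gave p = 0.1 (two-sided, adjusted p = 0.2 over 4 chains) for each, the smallest p that 3 libraries against 3 can give. Itgb1 kept 10.6% to 25.3% and Itgb3 0.325% to 2.58% over all libraries, with overlap in each comparison. The summed FPKM of the beta chains was 292 to 392.1 with NRASG12D alone, 312 to 343 with NUP98-NSD1 alone and 244 to 754 with both.

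Among the 6 alpha chains, Itga2b held 97.8%, 98.8% and 95.8% of the summed FPKM in NRASG12D, 82.1%, 82.7% and 88.5% in NUP98-NSD1, and 15.2%, 23.99% and 2.55% in NUP98-NSD1+NRASG12D cells. Itgam held at most 0.141% in NRASG12D, then 6.61%, 4.84% and 3.88%, then 41.4%, 56.1% and 79.4%. Itgal held 0.368% to 0.658%, then 1.73% to 4.55%, then 9.82% to 23.5%. Itga4 held 0.203% to 0.722%, then 4.12% to 6.44%, then 4.47% to 18.1%, and the groups with NUP98-NSD1 overlapped. Itgax held 0.137% to 0.154%, then 0.333% to 0.575%, then 1.11% to 2.63%, so its shares were separate in every pair although its levels in the groups with NUP98-NSD1 overlapped. Each separate pair had an exact permutation p of 0.1 (two-sided, adjusted p = 0.12 over 6 chains). Itgae held 0.104% to 2.701%, with overlap in both comparisons against NRASG12D cells. These shares depend on the chains in the sum. With all integrin alpha chains in it, Itgam held 28.7%, 44.0% and 58.7% in NUP98-NSD1+NRASG12D cells, and Itga2b 10.6%, 18.8% and 1.88%.

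**Figure D4:**
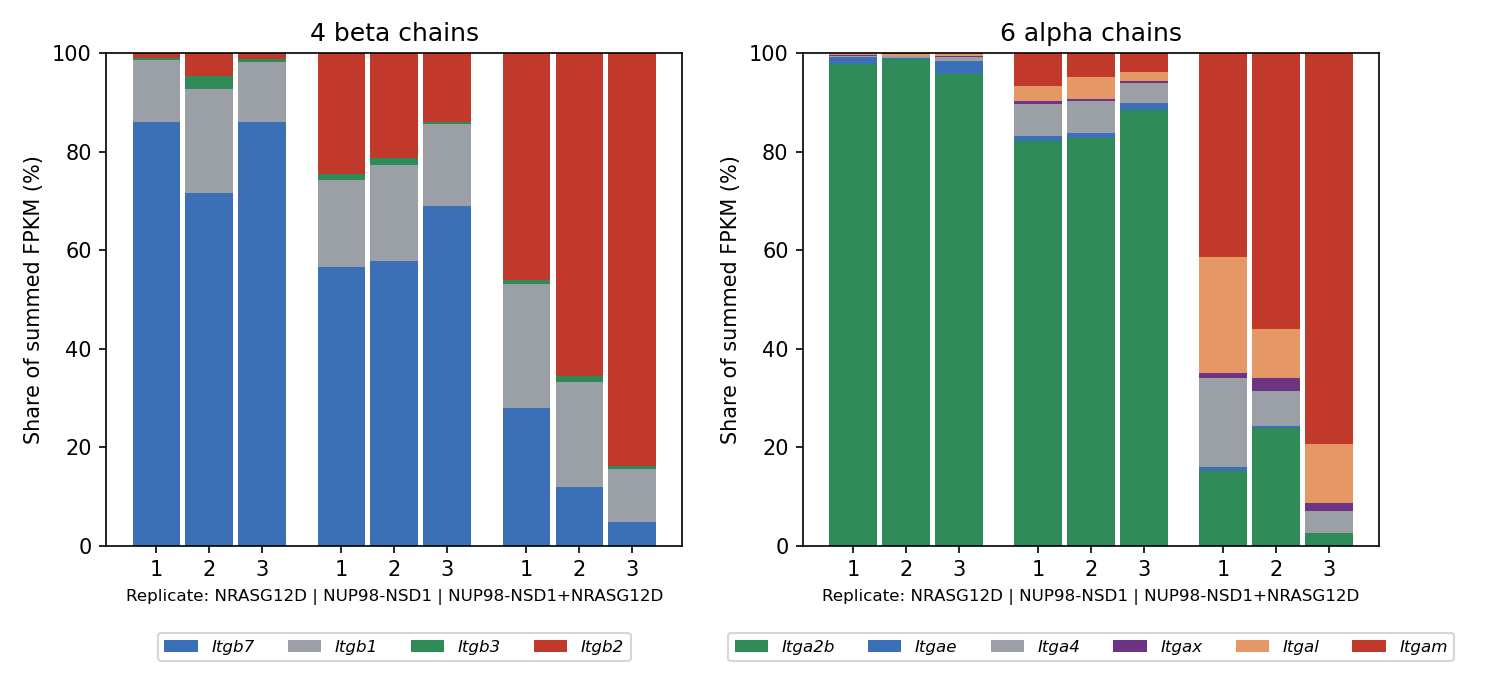
Share of each chain (percent) in the summed FPKM of the 4 beta chains (left) and of the 6 alpha chains (right), 1 bar per library, with replicates 1, 2 and 3 from left to right in each group. Itgb7 and Itga2b make up most of the NRASG12D bars, and Itgb2 and Itgam are the largest segments of the NUP98-NSD1+NRASG12D bars.

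Chains that form a pair were compared per length. The summed FPKM of Itgal, Itgam and Itgax was 0.269 to 0.952 times that of Itgb2 with NRASG12D alone, 0.314 to 0.396 times with NUP98-NSD1 alone and 0.256 to 0.479 times with both. These ranges overlapped, while the levels of Itgb2 themselves ran from 4.05 to 631 FPKM. Itgb7 was 19.1 to 65.2 times the sum of its partners Itga4 and Itgae with NRASG12D alone, 9.65 to 13.9 times with NUP98-NSD1 alone and 3.49 to 4.74 times with both, and these ranges were separate. Itgam was 0.00648 to 0.367 times Itgal with NRASG12D alone, 1.06 to 2.24 times with NUP98-NSD1 alone and 1.76 to 6.61 times with both. RNA levels do not give the amount of the paired proteins at the surface.

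Calls in 4 lists of related genes can be read against the 52.1%, 38.3% and 8.61% of all tested genes called in NUP98-NSD1 against NRASG12D, NUP98-NSD1+NRASG12D against NRASG12D and NUP98-NSD1+NRASG12D against NUP98-NSD1 cells. Of 17 other integrin chains, 6 passed the filter, of which 3, 3 and 2 were called. Itgb5, Itgb2l and Itga1 rose in both comparisons with NRASG12D cells and none fell. In NRASG12D cells they had at most 0.0431, 0.0319 and 0.139 FPKM. They passed the filter only through the groups with NUP98-NSD1, so the direction of these rises was set by the filter. Itga1, the collagen-binding alpha 1, had 0.0338 to 0.139 FPKM with NRASG12D alone, 0.76 to 1.35 with NUP98-NSD1 alone and 4.69 to 9.59 with both. Its log2 fold change was 0.83 (adjusted p = 0.00570), 2.704 (adjusted p = 0.000452) and, between the groups with NUP98-NSD1, 1.87 (adjusted p = 0.0127). Itgb2l, a relative of Itgb2 on another locus, reached 4.11 to 18.7 FPKM in NUP98-NSD1+NRASG12D cells and rose by 2.25 (adjusted p = 0.0413) against NUP98-NSD1 cells. Itgb5 rose by 1.44 (adjusted p = 0.00148) and 2.48 (adjusted p = 0.000620) against NRASG12D cells. Itgav, Itga5 and Itga6, with at least 4.44 FPKM in every library, passed in no comparison. The median log2 fold change of the 6 was 0.44, 1.60 and 0.87.

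Among 14 integrin ligands, 8 passed the filter, of which 5, 6 and 3 were called. Against NRASG12D cells 4 rose and 1 fell in NUP98-NSD1, and 4 rose and 2 fell in NUP98-NSD1+NRASG12D cells. Spp1, which encodes osteopontin, had 0.945, 11.6 and 1.65 FPKM in NRASG12D, 316, 243 and 177 in NUP98-NSD1, and 1259, 5746 and 10243 in NUP98-NSD1+NRASG12D cells. It rose by 5.90 (adjusted p = 0.00100) and 10.03 (adjusted p = 0.000388) against NRASG12D cells, and by 4.13 (adjusted p = 0.0217) between the groups with NUP98-NSD1. Thbs1, thrombospondin 1, rose by 3.90 (adjusted p = 0.00164) and 6.31 (adjusted p = 0.00197), and Cdh1, the E-cadherin that alpha E beta 7 binds, by 1.52 (adjusted p = 0.00149) and 2.49 (adjusted p = 0.000235). Icam4 fell in NUP98-NSD1+NRASG12D cells, by 1.99 (adjusted p = 0.00179) against NRASG12D and by 2.14 (adjusted p = 0.0110) against NUP98-NSD1 cells. Icam2 rose by 1.01 (adjusted p = 0.00476) in NUP98-NSD1 against NRASG12D cells. The median over the 8 was 0.70, 1.18 and 0.83.

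Of 18 proteins that activate integrins or bind their tails, 16 passed the filter, of which 8, 10 and 3 were called, in both directions. The first count is close to the share of all genes. In NUP98-NSD1 against NRASG12D cells 4 rose and 4 fell, in NUP98-NSD1+NRASG12D against NRASG12D cells 5 rose and 5 fell, and against NUP98-NSD1 cells 2 rose and 1 fell. Rasgrp2 (CalDAG-GEFI), which switches on the small GTPase RAP1 upstream of talin, had 0.0413 to 0.584 FPKM with NRASG12D alone, 19.6 to 71.9 with NUP98-NSD1 alone and 59.5 to 178 with both. Its rise was 5.23 (adjusted p = 0.000531) and 6.20 (adjusted p = 0.000128) against NRASG12D cells. Fermt2, kindlin-2, fell by 1.25 (adjusted p = 0.000268) and 3.85 (adjusted p = 3.57e-05), and by 2.60 (adjusted p = 0.00377) between the groups with NUP98-NSD1. Its blood cell relative Fermt3, kindlin-3, stayed at 183 to 282 FPKM and fell by 0.48 (adjusted p = 0.0405) with both oncogenes relative to NRASG12D alone. Skap1 fell by 1.67 (adjusted p = 0.00748) and 2.21 (adjusted p = 0.00330), while Skap2, a related adaptor of myeloid cells, rose by 1.13 (adjusted p = 0.00298) and 2.15 (adjusted p = 0.000216). The medians over the 16 genes were 0.01, 0.08 and -0.01.

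Of 14 genes of outside-in signalling and the adhesion complex, 12 passed the filter, and the 6 and 5 called in the comparisons with NRASG12D cells are also close to the share of all genes. In NUP98-NSD1 against NRASG12D cells 4 rose and 2 fell, and in NUP98-NSD1+NRASG12D against NRASG12D cells 3 rose and 2 fell. Between the groups with NUP98-NSD1 limma called 0 of the 12, while Fgr and Pxn had an unadjusted p under 0.05. Fgr, an SRC family kinase that acts downstream of beta 2 integrins, showed the largest rise of the 12. It was listed at 0 to 0.0843 FPKM with NRASG12D alone, 2.13 to 5.32 with NUP98-NSD1 alone and 7.06 to 11.4 with both, and the groups did not overlap. Its rise was 2.12 (adjusted p = 0.00121) and 3.30 (adjusted p = 0.000101) against NRASG12D cells, and its log2 fold change between the groups with NUP98-NSD1 was 1.19 (adjusted p = 0.0575). Pxn, the adaptor paxillin, rose by 0.76 (adjusted p = 0.00192) and 1.51 (adjusted p = 0.000973) against NRASG12D cells. Parvb, beta-parvin, fell by 1.04 (adjusted p = 0.0391) and 1.61 (adjusted p = 0.0259), and Ptk2b, the tyrosine kinase PYK2, by 0.83 (adjusted p = 0.00356) and 0.87 (adjusted p = 0.0310). The medians over the 12 genes were 0.0007, 0.09 and 0.10.

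**Figure D5:**
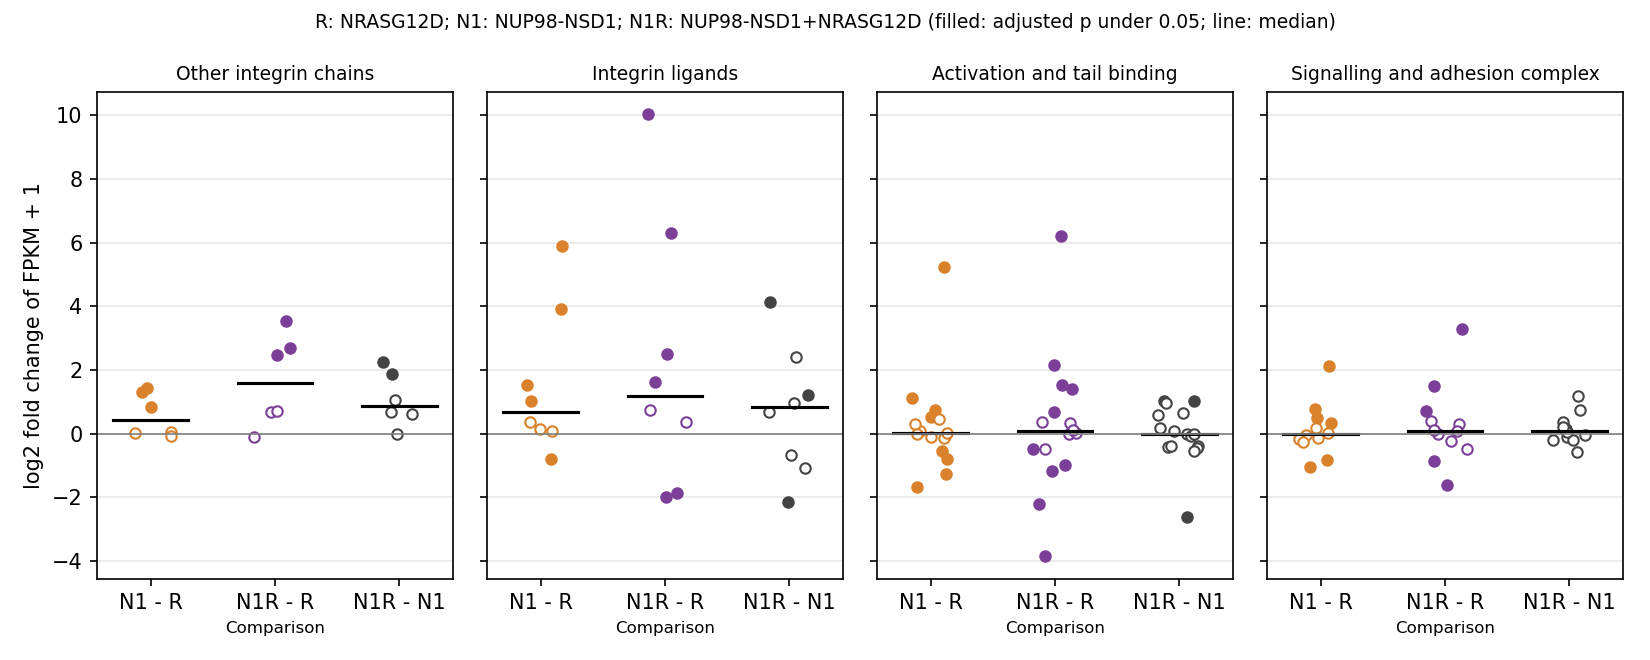
Log2 fold change of FPKM + 1 for the tested genes of 4 lists (other integrin chains, integrin ligands, activation and tail binding, signalling and adhesion complex) in the 3 comparisons, where R is NRASG12D, N1 is NUP98-NSD1 and N1R is NUP98-NSD1+NRASG12D. Circles are filled where the adjusted p was under 0.05 and black lines mark list medians, which lie near 0 for the last 2 lists.

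The genes whose pattern over the 9 libraries was most like that of a member were found by the root mean square difference of gene-centred log2(FPKM + 1) values. For Itga2b they were Rab27b, F2r and Ctla2a, at 0.13, 0.15 and 0.15, beside a spread of 2.30 for Itga2b itself. F2r encodes a thrombin receptor and Rab27b a small GTPase of granule release. For Itgam they were Lyz1, Fam20c and App, at 0.28, 0.30 and 0.34 beside a spread of 2.55. For Itgb2 they were Clec4d, Upp1 and App, at 0.37, 0.38 and 0.40 beside 2.27. For Itgb7 they were Chsy1, Eef2k and Acss1, at 0.13, 0.17 and 0.17 beside 1.10, and for Itgal Flt1, 1600014C10Rik and Pfkl, at 0.22, 0.24 and 0.25 beside 1.10. The nearest gene was Ell2 for Itga4 (0.26 beside 1.15), Pga5 for Itgae (0.30 beside 1.11), Acp2 for Itgax (0.14 beside 0.60), Sft2d1 for Itgb1 (0.08 beside 0.30) and Gm44389 for Itgb3 (0.36 beside 0.65). Among the members themselves, the smallest difference was between Itgax and Itgb1 (0.36), which are not described above as partners. Itgam was nearest to Itgb2 (0.45), Itgb7 to Itgae (0.51), and Itgb3 to Itgb1 (0.54), which are both beta chains. A small difference for a gene that varies little, such as Itgb1, says less than one for a gene with a wide range.

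Nras served as a check of the labels. It had 348 to 479 FPKM with NRASG12D alone, 47.7 to 51.2 with NUP98-NSD1 alone and 245 to 701 with both. The tables hold no counts, and the depth estimated from the steps between low values was 23700000 to 37200000 fragments per library.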

How the data were processed

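RNA of 9 samples was sequenced as paired-end reads of 50 bp. The authors aligned them to GRCm38 with GENCODE M22 annotation, mainly with STAR (version 2.7.2a in the submitters' processing notes), and used Cufflinks (2.2.1 there) for gene expression. The authors deposited FPKM, one value per gene and library, and no scaling between libraries is stated. Their DESeq2 analysis of counts was not run here. Values of an identifier listed more than once were summed.

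A gene was kept if 3 or more of the 9 libraries reached 1 FPKM, and compared as log2(FPKM + 1), a scale that understates changes of low genes, with limma 3.58.1 in R 4.3.3 (lmFit, eBayes with trend). A gene below 1 FPKM in all NRASG12D libraries passed this filter only through the other groups. The direction of its change against NRASG12D cells is then largely set by the filter. This held for Itgam, Itgax, Itga1, Itgb2l, Itgb5, Cdh1, Rasgrp2, Fgr, Flt3 and Batf3, among others. Each pair of groups was fitted on its own 6 libraries. The p-value was adjusted by Benjamini-Hochberg over the 13493 genes kept, and the threshold was 0.05. The exact permutation test, two-sided, was used for chain shares. Another pseudocount, no filter, other scalings, 1 fit for all libraries, array weights, a replicate block and leaving out each library in turn were the alternatives. The test was checked on simulated data. Depth was estimated from the steps of low FPKM in 3386 single-transcript genes, and the level of 3 fragments covers counting error only. Positions and shared sequence came from GENCODE M21 and upstream sequences from RefSeq (GRCm38.p6). Of the identifiers, 54882 were found in that annotation, 54867 with equal coordinates.

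The 10 members, the marker lists and the pathway lists were chosen with earlier results of these data known. A gene of a pathway list and a gene of a marker list are not reported here and were left out of the counts. Named genes were all members, up to 4 genes per list past the threshold with the largest log2 fold change, the 3 genes nearest to each member and genes overlapping a member, and Fermt3, Pf4, Gp6, Gp1ba, Gp5, Kit, Fcer1a, Cpa3, Mcpt4, Hdc, Cx3cr1, Lat, Lyz2, Csf1r, Mpo, S100a8, Cd3d, Cd3e, Cd3g, Xcr1, Clec9a, Itgad, Itgav, Itga5 and Itga6 were named after their values were seen. Same-numbered libraries are not described as pairs, and the correlation of their deviations averaged -0.03, 0.02 and 0.002 over the 3 comparisons, so no block was used.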

Additional observations from a re-analysis of the deposited data

How the results depend on the processing

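Without NRASG12D replicate 2, 8 members rather than 5 passed in NUP98-NSD1 against NRASG12D cells. The fits without single libraries gave 5 to 8 members and 4736 to 7948 genes there, 6 to 8 members and 2941 to 6327 genes in NUP98-NSD1+NRASG12D against NRASG12D cells, and 1 to 7 members and 283 to 2509 genes in NUP98-NSD1+NRASG12D against NUP98-NSD1 cells, where the whole sets gave 7036, 5173 and 1162 genes. With all 9 libraries in a single fit 3065 genes passed in the first comparison and 2251 in the last, with array weights 3500 in the last, and without the filter 169 genes and 0 members in the last (4724 genes at an unadjusted p under 0.05), where 41853 genes were tested. Of the calls in the first comparison 80.9% were higher, but 43.2% with quantile normalization and 49.3% with median-ratio scaling. These shares were 63.1%, 41.3% and 50.9% in the second and 26.8%, 36.7% and 32.6% in the last. With a replicate block 6864, 4531 and 801 genes passed, and Itgb7 in NUP98-NSD1 against NRASG12D cells then passed (adjusted p = 0.0246).

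Directions turned only for small differences. In NUP98-NSD1 against NRASG12D cells Itgax became -0.19 and Itgb1 -0.14 after quantile normalization, and Itgb1 -0.16 after median-ratio scaling. Itgb3 became 0.02003 with a pseudocount of 0.1, 0.39 with array weights, and ran from -0.43 to 0.52 without single libraries. In NUP98-NSD1+NRASG12D against NRASG12D cells Itgb3 was -0.0408 after quantile normalization and -0.24 to 0.72 without single libraries, and against NUP98-NSD1 cells -0.19 to 0.595. Differences in share without single libraries ran, for Itgb3, from -0.59 to 0.53, from -0.78 to 0.35 and from -0.49 to 0.0521 percentage points in the 3 comparisons, for Itgb1 in the last from -1.96 to 5.36, and for Itgae in the first from -0.92 to 0.30. The causes were not tested. With all integrin chains of that type in the sum, no share difference turned its direction. The number of libraries limits these results, and 3 against 3 cannot give an exact p below 0.1.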
